A study of Homo sapiens with 24 samples.

Results

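The genes described here are 50 components of the DNA replication machinery, followed as mRNA through 8 conditions of the ovarian cancer cell lines PEO1 and PEO4. They were chosen by symbol for their known roles in origin licensing, the replisome and nucleotide synthesis. All 50 were among the 28277 genes of each of the 2 deposited count tables, and all 50 passed the filter on low counts that left 15882 genes for testing in the first table and 17020 in the second. The lines were established from high-grade serous ovarian carcinoma of a single patient, PEO1 before and PEO4 after resistance to chemotherapy arose. Pair A, in the first table, was untreated PEO1 (labelled genotype WT, and BRCA2- in the design text, BRCA2 being a homologous recombination factor) and untreated PEO4 (in which a reversion restores BRCA2). The paper states that sodium pyruvate was added to the medium of BRCA2-impaired PEO1 and its matching PEO4. Pair B, in the second table, was a PEO1 line with BRCA2 function regained by spontaneous reversion, called PEO1 BRCA+ below, and PEO4, each untreated or given 5 µM pyridostatin (PDS) in the medium for 2 or 6 h. PDS is a small molecule that binds and stabilises G-quadruplexes, folded structures of guanine-rich DNA. Each condition had 3 biological replicates, each condition of a line stands for that single line, and no vehicle control is described in the sources used here.

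Eukaryotic cells license replication origins in G1, when the origin recognition complex (ORC) with CDC6 and CDT1 loads the MCM2-7 helicase on DNA. In S phase the kinase CDC7 with its activator DBF4, together with MCM10, CDC45 and the GINS complex, turns the loaded helicase into a moving fork. Polymerase alpha with primase lays primers, polymerases delta and epsilon extend them on the PCNA clamp, RFC loads that clamp, RPA covers single strands, FEN1 and LIG1 join Okazaki fragments, and CAF-1 (CHAF1A and CHAF1B) places histones behind the fork. Many of these genes are transcribed in late G1 and S phase under E2F transcription factors, so their mRNA level in a culture is known to move both with the share of cells in S phase and with transcription in each cell. In bulk libraries such as these, fewer cells expressing a gene and less RNA per cell cannot be told apart.

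Levels are given as CPM (counts of a gene relative to the total of its library, after scaling by the trimmed mean of M-values, TMM), and differences as log2 fold changes from edgeR's quasi-likelihood test with their standard error (SE). A gene was called higher or lower at a Benjamini-Hochberg adjusted p below 0.05 over all genes of its table, and the share of all tested genes called the same way is given beside each count of replication genes. The tables were made and scaled separately, so levels are compared only within a pair.

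Total counts were 32528913 to 63882077 per library in pair A, 18699929 to 22375644 in the untreated libraries of pair B and 33260167 to 43713947 in its treated libraries, so every treated library was deeper than every untreated one. Listed rRNA genes took 0.217% to 0.474% of counts in the untreated libraries of pair B and 0.0163% to 0.0369% in the treated ones, and the part of this difference in the PDS results was not tested. The lines carried their label: all 9 markers of ovarian carcinoma and epithelium were above 1 CPM in every condition, with a summed level of 6215 to 15499 CPM. Markers of fibroblasts summed to 2.53 to 40.1 CPM in pair B and 5.92 to 36.0 CPM in pair A, and the 3 endothelial markers to 0.0586 to 2.96 CPM. Of the 4 blood markers, the T-cell gene CD3E was at 0 in every condition, and the list summed to 23.1 to 77.0 CPM. Nearly all of that sum was CD68, at 22.9 to 52.2 CPM in pair A and 35.1 to 76.6 CPM in pair B. PTPRC reached at most 0.041 CPM and CD79A at most 2.21 CPM in either pair. One library stood apart for the replication genes: replicate 2 of PEO4 at 2 h of PDS was the lowest of its group for 48 of the 50, by a median of −0.24 on the log2 scale, against −0.04 for all genes over 5 CPM. Replicate 3 of PEO4 in pair A was lowest for 44 and replicate 1 of PEO1 in pair A for 40. Other libraries sat high: replicate 3 of PEO4 at 2 h was the highest of its group for 40, by a median of 0.16. Untreated replicate 1 of PEO4 in pair B was highest for 34, by a median of 0.10. Most counts at 2 h in PEO4, and the genes that changed call, are therefore also given without replicate 2 of PEO4 at 2 h. That library was picked by its low values for these same genes, so leaving it out raises most of their 2 h values.

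Per kilobase of transcript, levels of the 50 genes spanned a wide range. In untreated PEO1 BRCA+ cells PCNA was highest at 159 CPM per kb, followed by MCM7 at 121, POLD2, a polymerase delta subunit, at 111, MCM4 at 97.5 and RRM2, a subunit of ribonucleotide reductase, at 85.5. The lowest were ORC5 at 3.87 and CHAF1B at 3.89 CPM per kb, with POLE2 at 5.03 and GINS3 at 5.34. The subunits of a complex were thus not at one level: within MCM2-7 the range ran from 18.9 CPM per kb for MCM6 to 121 for MCM7. Exons of 13 of the 50 genes overlap exons of another listed gene, on the opposite strand for most (among them TYMS with ENOSF1 and TYMSOS, GINS2 with GSE1, RFC4 with EIF4A2, DBF4 with SLC25A40 and RPA3 with UMAD1), and MCM7 also hosts MIR93. FEN1 with FADS2, PRIM1 with NACA and CHAF1B with MORC3 overlap on the same strand, which a strand setting would not separate. The strand setting of the counting is not given in the sources used here, so values of the 13 genes are uncertain to that extent, as are those of PRIM2, whose locus is partly duplicated in the human genome.

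E2F factors bind sites in the promoters of many replication genes, and the words are shown here because later paragraphs sort the responses by them. RefSeq promoter sequence (GRCh38.p14, 250 bases before to 50 bases after the start) matched 44 of the 50 genes by symbol; MCM4, MCM5, GINS4, POLD3, RPA2 and RPA3 were not matched. At least 1 of the 4 E2F words TTTCCCGC, TTTCGCGC, TTTGCCGC and TTTGGCGC, on either strand and counted also where words overlap, was found in 19 of the 44 (43.2%), against 908 of all 27305 promoters (3.33%). The word CCAAT, read on both strands, was in 25 of the 44 (56.8%) and in 35.7% of all promoters. A G-quadruplex pattern, 4 runs of at least 3 G with 1 to 7 bases between them on either strand, was in 11 of the 44 (25%) and in 24.1% of all. A match is a description of these letters and not a measured binding site. The windows below, on the strand of the gene from 5′ to 3′, show the words of genes whose values follow, with the E2F word in capitals; the position of its first base before the start (or a negative number after it) is 59 for PCNA, 31 for GINS2, 4 for MCM3 (1 of 2 words, the other at 174), 90 for 1 of the 2 pairs of overlapping words in MCM6, 137 for POLA1, 18 for POLE, 114 for LIG1, 5 for CLSPN and −7 for CDC6.
PCNA, chr20:5126663-5126692, minus strand: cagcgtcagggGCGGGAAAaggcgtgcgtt
GINS2, chr16:85688967-85688996, minus strand: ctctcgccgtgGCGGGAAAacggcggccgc
MCM3, chr6:52284728-52284757, minus strand: agttcggaagtTTTCGCGCcggggtggagt
MCM6, chr2:135876515-135876544, minus strand: cattggtcaggTTTGGCGCGAAAtctccag
POLA1, chrX:24693770-24693799, plus strand: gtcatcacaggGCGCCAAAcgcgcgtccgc
POLE, chr12:132687342-132687371, minus strand: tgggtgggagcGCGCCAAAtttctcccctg
LIG1, chr19:48170440-48170469, minus strand: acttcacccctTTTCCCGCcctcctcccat
CLSPN, chr1:35769965-35769994, minus strand: actctggctggGCGGGAAAgcaagaacagc
CDC6, chr17:40287875-40287904, plus strand: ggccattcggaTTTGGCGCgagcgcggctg

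RRM2 held none of the E2F words in this window and 3 copies of CCAAT, at 123, 93 and 66 bases before the start. They are shown because RRM2 was among the genes that rose late in PEO4; CCAAT is in capitals.
RRM2, chr2:10122606-10122630, plus strand: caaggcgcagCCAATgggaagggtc
RRM2, chr2:10122636-10122660, plus strand: catggcacagCCAATgggaagggcc
RRM2, chr2:10122663-10122687, plus strand: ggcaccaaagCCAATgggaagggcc

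Replication genes were on balance lower in untreated PEO4 than in the PEO1 line of the same pair. In pair A 24 of the 50 were lower and 8 higher (background 31.6% lower and 30.1% higher of all genes tested), and in pair B 24 were lower and 7 higher (background 34.6% and 34.0%). The median log2 fold change of the 50 was −0.20 in pair A and −0.14 in pair B, against −0.01 and 0.00 over all genes. The pairs share no library, and 19 of the 50 (38%) were lower in PEO4 in both, against 21.7% of the 15396 genes tested in both tables; 5 of the 50 were higher in both, against 20.7% of those genes. Called in opposite directions were ORC2 (log2 fold changes 0.90 in pair A and −0.22 in pair B) and CHAF1B (0.29 and −0.55). Pair A differs from pair B in the BRCA2 state of its PEO1 line, in culture medium (sodium pyruvate), in library preparation and in table, and these cannot be told apart. Fibroblast markers summed to 32.7 to 36.0 CPM in PEO1 and 5.92 to 10.8 CPM in PEO4 of pair A, and to 5.41 to 7.69 CPM in PEO1 BRCA+ and 21.3 to 40.1 CPM in PEO4 of pair B, the opposite order, and their part in the results was not tested. Over 2-fold differences were found for 3 of the 50 in each pair, against 25.8% of all genes in pair A and 24.8% in pair B.

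**Figure D1:**
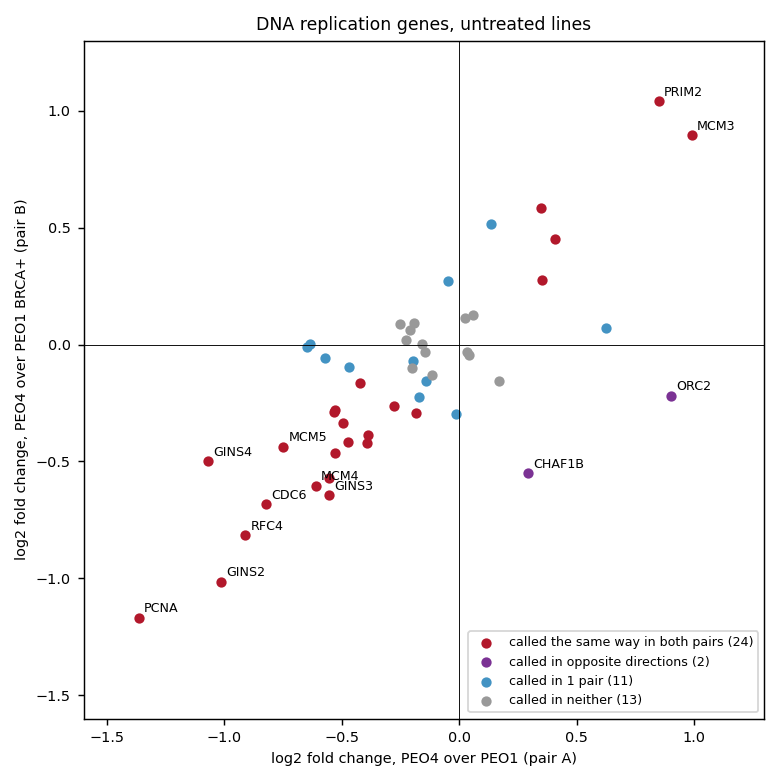
Log2 fold change of each of the 50 replication genes in untreated PEO4 over PEO1 in pair A (horizontal) and over PEO1 BRCA+ in pair B (vertical), coloured by call. PCNA lies lowest in both at −1.37 and −1.17, MCM3 is highest in pair A and PRIM2 in pair B, and 24 genes were called the same way in both pairs.

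PCNA, the sliding clamp of the replicative polymerases, showed the largest difference between the lines. Its level was 140, 146 and 166 CPM in PEO1 and 56.9, 63.6 and 54.9 CPM in PEO4 of pair A, and 207, 203 and 201 CPM in PEO1 BRCA+ and 99.7, 89.5 and 82.4 CPM in PEO4 of pair B. The groups were far apart in both pairs, with every PEO4 library under every library of its PEO1 line. The log2 fold change was −1.37 (SE 0.09, adjusted p = 4.1e-08) in pair A and −1.17 (SE 0.07, adjusted p = 2.8e-13) in pair B. The clamp loader subunits RFC2, RFC3 and RFC4 were also lower in both pairs, RFC4 by the largest margin at −0.91 (SE 0.08) and −0.81 (SE 0.07), while RFC5 was called in neither (0.17 and −0.16). RFC1, the large subunit, was higher in pair B at 0.27 and not called in pair A at −0.05.

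The MCM2-7 subunits, which form a single hexamer, split by line. MCM3 stood at 113, 129 and 133 CPM in PEO1 and 285, 240 and 222 CPM in PEO4 of pair A, and at 155, 140 and 145 CPM in PEO1 BRCA+ and 277, 276 and 264 CPM in PEO4 of pair B. All PEO4 libraries were above all PEO1 libraries, with log2 fold changes of 0.99 (SE 0.10, adjusted p = 2.6e-06) and 0.90 (SE 0.07, adjusted p = 7.6e-11). MCM6 was higher in PEO4 as well, at 0.35 in pair A and 0.59 in pair B. In contrast, MCM2 (−0.53 and −0.28), MCM4 (−0.61 and −0.60) and MCM5 (−0.75 and −0.44) were lower in both, and MCM7 was called in neither (−0.25 and 0.09). The lowest and highest of the 6 were thus MCM5 and MCM3 in pair A and MCM4 and MCM3 in pair B.

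Among the factors that activate the helicase, GINS subunits were lower in PEO4. GINS2 measured 21.6, 22.3 and 25.9 CPM in PEO1 against 12.7, 10.9 and 10.9 CPM in PEO4 of pair A, and 26.8, 25.8 and 26.9 CPM in PEO1 BRCA+ against 13.0, 14.1 and 12.3 CPM in PEO4 of pair B. The groups did not overlap, and the log2 fold change was −1.02 in both pairs (SE 0.12, adjusted p = 7.5e-06 in pair A and SE 0.09, adjusted p = 3.2e-10 in pair B). GINS4 fell from 55.1, 59.6 and 61.0 CPM in PEO1 to 28.1, 32.2 and 23.3 CPM in PEO4 of pair A (log2 fold change −1.07, SE 0.11, adjusted p = 3e-06), a larger difference than the −0.50 of pair B, although the 2 differences were not compared by a test. GINS3 was lower at −0.55 and −0.65 and MCM10, a scaffold of helicase activation, at −0.56 and −0.57, whereas GINS1, CDC45 and CDC7 were called in neither pair. DBF4 was called lower in pair B at −0.16 and not called in pair A at a nearly equal −0.14.

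Of the licensing factors, CDC6 was lower in PEO4 in both pairs (−0.82 and −0.68) and ORC5, an ORC subunit, likewise (−0.53 and −0.29). GMNN, which encodes geminin, the inhibitor that blocks CDT1 after origins have fired, was higher in both (0.41 and 0.45), so GMNN and CDC6 differed between the lines in opposite directions. CDT1, ORC3 and ORC6 were lower in pair A (−0.57, −0.47 and −0.65) and not called in pair B (−0.06, −0.10 and −0.01). ORC2 read 27.2, 31.5 and 32.2 CPM in PEO1 against 56.6, 59.3 and 54.1 CPM in PEO4 of pair A, and 40.6, 39.3 and 38.3 CPM in PEO1 BRCA+ against 35.7, 33.1 and 32.8 CPM in PEO4 of pair B. It was therefore clearly higher in PEO4 of the first pair (0.90, SE 0.09, adjusted p = 1.9e-06) and slightly lower in PEO4 of the second. ORC1 was called in neither (−0.21 and 0.06).

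Primase subunit PRIM2 and the catalytic subunit of polymerase epsilon, POLE, were the polymerase genes higher in PEO4 in both pairs. PRIM2 was at 17.2, 18.2 and 19.3 CPM in PEO1 and 32.2, 35.0 and 31.3 CPM in PEO4 of pair A, and at 20.5, 17.5 and 19.2 CPM in PEO1 BRCA+ and 39.0, 40.1 and 38.6 CPM in PEO4 of pair B. PEO4 libraries were all above PEO1 libraries, with log2 fold changes of 0.85 (SE 0.09, adjusted p = 6e-06) and 1.04 (SE 0.08, adjusted p = 2.9e-11), while its partner PRIM1 was called in neither pair (−0.16 and 0.00). POLE was higher by 0.35 and 0.28. The accessory subunits POLD2, POLD3 and POLE2 were lower in both pairs, with log2 fold changes from −0.53 to −0.19. POLA1, the polymerase alpha catalytic subunit, was lower in pair B at −0.30 and at −0.02 in pair A, and POLA2 and POLD1 were called in neither. Of the remaining genes, FEN1 (−0.28 and −0.26), RRM1 (−0.39 and −0.39) and CHAF1A (−0.42 and −0.16) were lower in both, RPA2, RPA3, TIMELESS and RRM2 were called in neither, and RPA1 was at −0.17 and −0.22, called in pair B. LIG1 was higher in pair B at 0.52 (SE 0.06, adjusted p = 2.3e-08) and not called in pair A at 0.14, CLSPN, encoding the checkpoint mediator claspin, was higher in pair A at 0.63 (SE 0.13, adjusted p = 0.0015) and at 0.07 in pair B, and TYMS and WDHD1 were lower in pair A (−0.64 and −0.20) and at 0.00 and −0.07 in pair B.

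In PEO1 BRCA+ cells PDS was followed by a broad rise of replication genes, each below 2-fold. At 2 h 32 of the 50 were higher and 1 was lower (background 26.4% higher and 26.2% lower), and at 6 h 28 were higher and 4 lower (background 27.0% and 26.0%). The median log2 fold change was 0.27 at 2 h and 0.25 at 6 h, against −0.03 over all genes at both times. Both times are compared with the same 3 untreated libraries. Over 2-fold calls covered 7.57% of all genes at 2 h and 8.13% at 6 h, and GMNN at 2 h (0.80) and FEN1 at 6 h (0.87) were the largest values among the 50. With library totals for scaling there were 21 higher and 7 lower at 2 h and 20 and 8 at 6 h; it moved the median of all genes by −0.15 at each time, and the median of the 50 stayed 0.30 and 0.28 above that of all genes under every scaling.

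**Figure D2:**
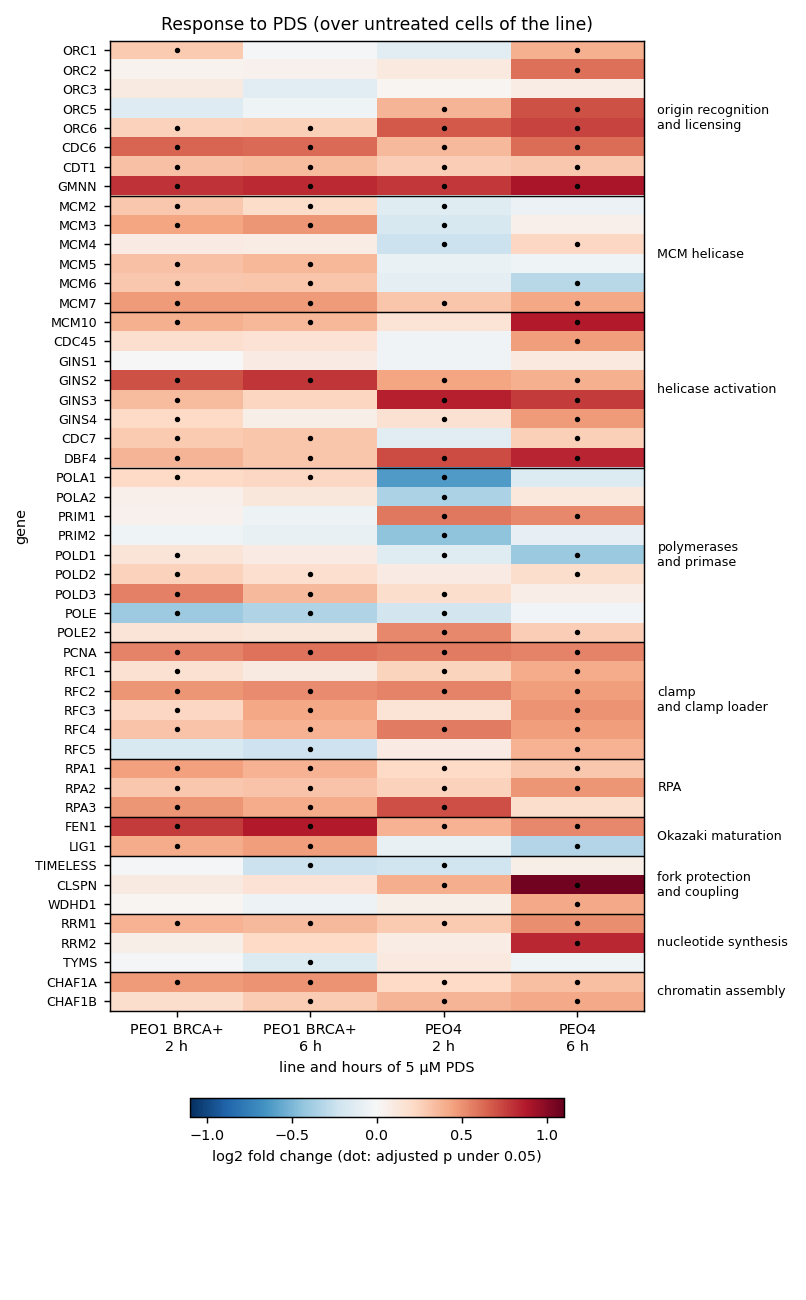
Log2 fold change of the 50 replication genes (rows, grouped by role) after PDS over untreated cells of the same line (columns: PEO1 BRCA+ and PEO4 at 2 and 6 h); dots mark an adjusted p under 0.05. The columns of PEO1 BRCA+ look alike at 2 and 6 h. PEO4 at 2 h has 5 of 9 polymerase and primase genes lower and 3 higher, with POLD2 also called higher without replicate 2. It has 3 of 6 MCM2-7 genes lower (MCM2, MCM3 and MCM4, none of them without replicate 2) and 1 higher (background 32.0% lower and 33.3% higher). The strongest rises in PEO4, led by CLSPN at 1.06, are at 6 h.

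GMNN and FEN1 rose most in PEO1 BRCA+ cells. GMNN went from 22.8, 23.6 and 21.9 CPM untreated to 41.0, 40.8 and 36.8 CPM at 2 h and 39.9, 42.1 and 38.4 CPM at 6 h. FEN1, the flap endonuclease of Okazaki fragments, went from 119, 121 and 120 CPM to 212, 205 and 194 CPM and then 224, 227 and 207 CPM. For both genes every treated library lay well above the untreated ones, and the 2 and 6 h levels were close. The log2 fold changes of GMNN were 0.80 (SE 0.07, adjusted p = 2.6e-09) and 0.82 (SE 0.07, adjusted p = 1.6e-09), and those of FEN1 0.77 (SE 0.06, adjusted p = 8.2e-10) and 0.87 (SE 0.06, adjusted p = 8.7e-11). GINS2 (0.70 and 0.79) and CDC6 (0.64 and 0.62) followed, then POLD3 at 2 h (0.56) and PCNA at 6 h (0.59, with 0.54 at 2 h).

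By role, the rise in PEO1 BRCA+ took in 5 of 8 licensing genes at 2 h, 5 of the 6 MCM2-7 genes, 6 of 8 helicase activation genes, 5 of 6 clamp genes, all 3 RPA genes and both Okazaki genes. It also took in 4 of 9 polymerase and primase genes and 1 of 3 nucleotide synthesis genes (background 26.4% of all genes higher). The MCM2-7 values at 2 h ran from 0.09 for MCM4, which was not called, to 0.47 for MCM7. POLE went the other way, from 115, 121 and 125 CPM untreated to 89.7, 88.9 and 94.4 CPM at 2 h and 97.0, 91.7 and 97.6 CPM at 6 h, with no overlap between treated and untreated libraries. Its log2 fold change was −0.40 (SE 0.06, adjusted p = 3.4e-06) at 2 h and −0.33 (SE 0.06, adjusted p = 3.7e-05) at 6 h. TIMELESS, a fork protection factor, RFC5 and TYMS, thymidylate synthase, were lower at 6 h by −0.24, −0.23 and −0.15. The fork genes CLSPN and WDHD1 and the reductase subunit RRM2 were called at neither time.

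Between 2 and 6 h little moved in PEO1 BRCA+. The edgeR test called 0 of the 50 higher and 1 lower (background 3.96% higher and 2.98% lower, 0.17% over 2-fold), with 1 higher and 6 lower at an unadjusted p under 0.05, and DESeq2 called 0 higher and 3 lower. The gene called was POLD3, a polymerase delta subunit, at 98.6, 101 and 103 CPM at 2 h and 85.5, 84.7 and 92.8 CPM at 6 h. All 6 h libraries were below the 2 h libraries (log2 fold change −0.20, SE 0.06, adjusted p = 0.033), and the call was lost without any one library other than replicate 3 at 6 h, when 2 genes were called.

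PEO4 cells also showed more rises than falls after PDS, with a stronger change by 6 h. At 2 h 25 of the 50 were higher and 9 lower (background 33.3% and 32.0%; 17.4% of all genes over 2-fold), with a median of 0.16 against 0.00 for all genes. At 6 h 34 were higher and 3 lower (background 34.6% and 35.2%), with a median of 0.39 against −0.03, and 1 gene passed 2-fold (background 22.6%). Without replicate 2 at 2 h, the library that stood apart, 31 were higher and 5 lower at 2 h (background 32.1% and 30.8%) with a median of 0.26, and without untreated replicate 1 the lower calls numbered 4. Over each library left out in turn, the higher calls at 2 h ranged from 23 to 31. Library totals gave 20 higher and 15 lower at 2 h and 30 and 9 at 6 h, upper-quartile scaling 30 and 8 at 6 h, and the median of the 50 stayed 0.16 and 0.42 above that of all genes. The 5 fibroblast markers moved with PDS in PEO4, from a summed 21.3 to 40.1 CPM untreated to 5.70 to 7.63 CPM at 2 h and 2.63 to 3.78 CPM at 6 h, with DCN at 0 in the treated libraries. The blood marker sum, nearly all of it CD68, went from 37.3 to 58.4 CPM to 67.5 to 77.0 and 65.1 to 74.9 CPM. In PEO1 BRCA+ the fibroblast markers went from 5.41 to 7.69 CPM to 2.80 to 3.31 and 2.53 to 3.33 CPM. The part of these markers in the results was not tested.

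The lines share no library at a given time, so their calls can be set beside each other. At 6 h 20 of the 50 (40.0%) were higher in both lines, against 19.5% of all genes, and 4 (8.0%) were called in neither, against 18.5%. At 2 h, with all libraries, 20 of the 50 (40.0%) were higher in both, against 18.6%. Since 28 and 34 of the 50 were higher in the single lines at 6 h (27.0% and 34.6% of all genes), a larger shared count follows from those counts alone. Whether the lines shared more calls than that was not tested. Among the genes higher in both lines at 6 h were PCNA, the licensing genes ORC6, CDC6, CDT1 and GMNN, and RFC2, RFC4, RPA1, RPA2, FEN1, RRM1 and CHAF1A. PCNA in PEO4 went from 99.7, 89.5 and 82.4 CPM untreated to 137, 119 and 148 CPM at 2 h and 130, 131 and 136 CPM at 6 h. All treated libraries exceeded the untreated ones, and the log2 fold changes of 0.57 and 0.55 were near the 0.54 and 0.59 of PEO1 BRCA+. The level in PEO4 at 6 h nevertheless stayed below the 201 to 207 CPM of untreated PEO1 BRCA+ cells.

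**Figure D3:**
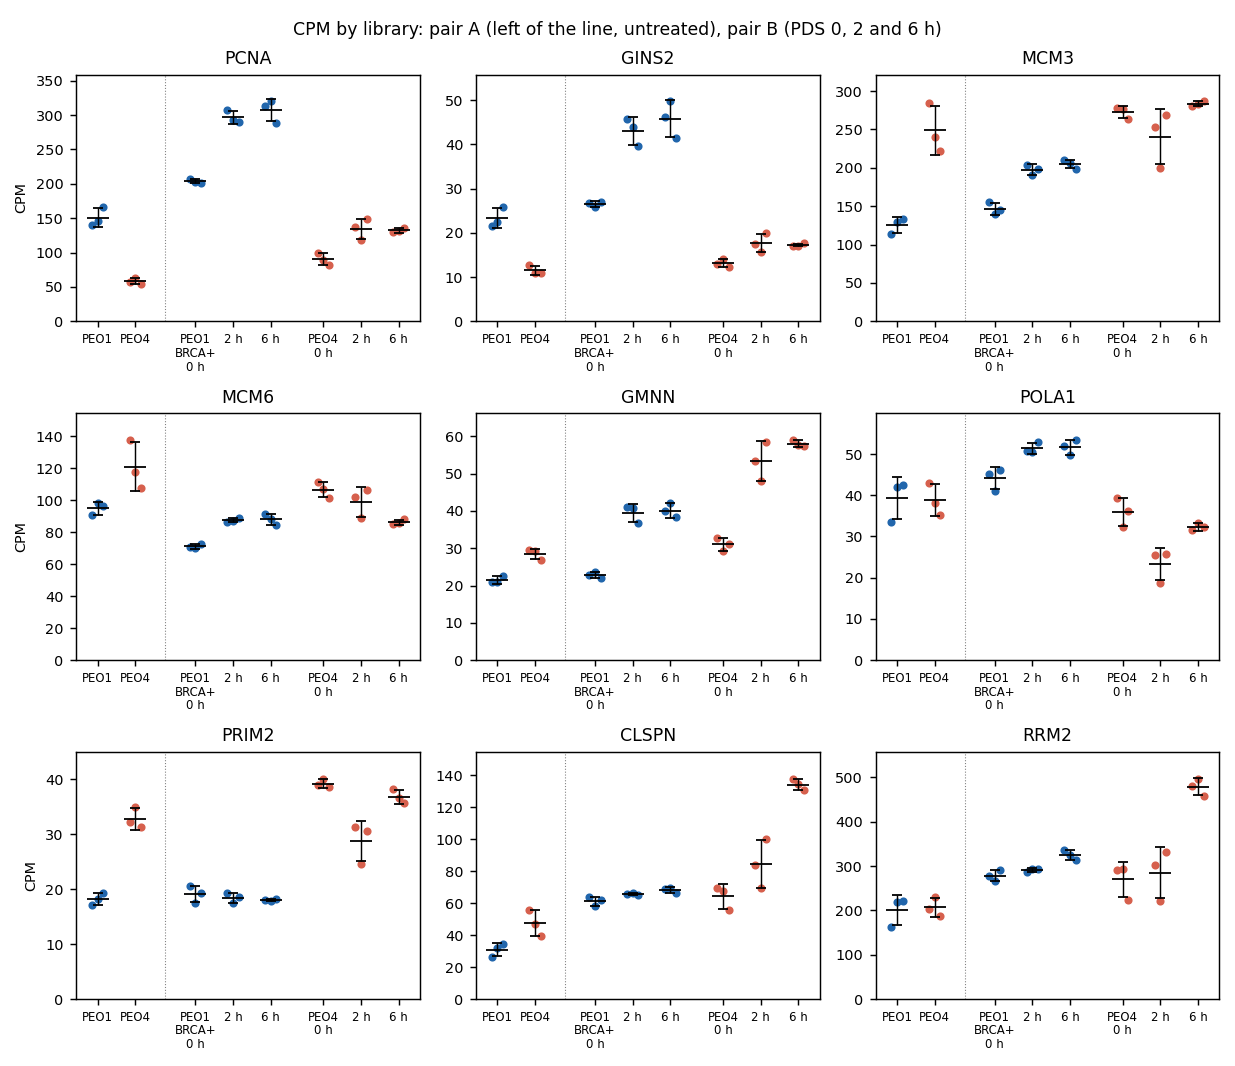
CPM of 9 replication genes in each library (points) with the mean and SD of 3 replicates (bars), for pair A to the left of the dotted line and pair B to its right at 0, 2 and 6 h of PDS (PEO1 lines blue, PEO4 red). PCNA and GINS2 are lower in PEO4 throughout and PRIM2 is higher. MCM3 is higher apart from an overlap at 2 h, where PEO4 replicate 2 is at 200 CPM and PEO1 BRCA+ replicate 1 at 204 CPM. POLA1 and PRIM2 dip in PEO4 at 2 h, and CLSPN and RRM2 rise in PEO4 at 6 h to 130 to 138 and 458 to 497 CPM.

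Of the 4 polymerase alpha and primase genes, 3 dipped in PEO4 at 2 h. POLA1 went from 39.2, 32.4 and 36.1 CPM untreated to 25.4, 18.7 and 25.8 CPM at 2 h and 31.5, 33.4 and 32.2 CPM at 6 h. Libraries at 2 h were all below the untreated ones, also without replicate 2, whose 18.7 CPM was lowest. The log2 fold change was −0.62 (SE 0.09, adjusted p = 1.9e-06) at 2 h, and −0.15 and not called at 6 h. PRIM2 moved likewise, from 39.0, 40.1 and 38.6 CPM to 31.2, 24.6 and 30.6 CPM and then 38.2, 36.6 and 35.7 CPM, with a log2 fold change of −0.44 (SE 0.08, adjusted p = 1.8e-05) at 2 h. POLA2, the second polymerase alpha subunit, was at −0.34 (SE 0.07, adjusted p = 0.00017). PRIM1, the catalytic primase subunit, went up at 2 h instead, from 21.5, 21.0 and 18.5 CPM to 31.9, 26.5 and 32.7 CPM (log2 fold change 0.58).

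Replicate 2 at 2 h weighed on the size of these dips. Without it POLA1 was at −0.48 (SE 0.07, adjusted p = 3.33e-06), PRIM2 at −0.34 (adjusted p = 0.000152) and POLA2 at −0.25 (adjusted p = 0.00194), all still lower. POLE and POLD1 also stayed lower (−0.20 and −0.13 with the library, −0.16 and −0.13 without it). In contrast, MCM2, MCM3, MCM4 and TIMELESS were called lower at 2 h with all libraries (−0.14, −0.18, −0.24 and −0.22) and not without replicate 2 (−0.05, −0.06, −0.13 and −0.10). Without replicate 2 the rises stayed called, at 0.94 for GINS3, 0.85 for GMNN, 0.76 for DBF4, 0.68 for RPA3 and 0.67 for PRIM1. MCM10, POLD2, RFC3, RFC5, RRM2 and WDHD1 were called higher at 2 h only without that library. MCM4 read 283, 261 and 238 CPM untreated and 230, 187 and 246 CPM at 2 h, so the groups overlapped.

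GINS3, GMNN, DBF4 and RPA3 had the largest rises in PEO4 at 2 h. GINS3 went from 7.75, 7.73 and 7.0 CPM untreated to 12.9, 11.9 and 15.8 CPM at 2 h and 12.5, 12.1 and 13.7 CPM at 6 h. DBF4, the activator of the CDC7 kinase, went from 23.6, 26.6 and 24.9 CPM to 41.1, 38.8 and 43.1 CPM and 44.9, 45.3 and 43.6 CPM. Both genes were above every untreated library from 2 h on, with log2 fold changes at 2 h of 0.85 for GINS3 (SE 0.11, adjusted p = 1.6e-07) and 0.72 for DBF4 (SE 0.06, adjusted p = 6.4e-10). GMNN reached 0.78 at 2 h and 0.90 at 6 h in PEO4, from 32.8, 29.3 and 31.2 CPM to 53.5, 48.0 and 58.5 CPM and 59.1, 57.8 and 57.3 CPM. RPA3, the small subunit of RPA, rose at 2 h and was not called at 6 h (log2 fold changes 0.71, SE 0.10, adjusted p = 4.8e-07, and 0.20). It read 14.7, 13.9 and 11 CPM untreated, 20.5, 22.7 and 21.6 CPM at 2 h and 15.7, 14.5 and 15.2 CPM at 6 h. Its 6 h libraries were all below its 2 h libraries (log2 fold change −0.51, SE 0.09, adjusted p = 2.7e-05), while RPA1 and RPA2 were higher than untreated at 6 h (0.29 and 0.49).

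From 2 to 6 h in PEO4, 24 of the 50 were higher at 6 h than at 2 h and 6 lower (background 28.9% higher, 31.3% lower, 12% over 2-fold), with a median of 0.13 against −0.02 for all genes. Without replicate 2 at 2 h 18 were higher and 9 lower (background 25.5% and 27.0%) with a median of 0.08, and without replicate 3 at 2 h the lower calls numbered 3. Over each library left out in turn, the higher calls ranged from 18 to 30. The rises of CDC6, GINS1, MCM3, POLE, RFC1 and RPA2 were not called without replicate 2, and POLD3, RFC2 and RFC4 were then called lower. Of the 24 genes higher with all libraries, 7 had been called lower at 2 h than in untreated cells (MCM3, MCM4, POLA1, POLA2, PRIM2, POLE and TIMELESS), and others, such as ORC1 and RRM2, had not been called at 2 h. Of these 7, POLA1, POLA2 and PRIM2 kept both calls without replicate 2. MCM3, MCM4 and TIMELESS lost the fall at 2 h, and MCM3 and POLE the rise from 2 to 6 h. RRM2 was then called higher at 2 h, at 0.24. Changes from 2 to 6 h share the 2 h libraries with the changes at 2 h, so the 2 sets of values are not independent.

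CLSPN, RRM2 and MCM10 led the late rise. CLSPN measured 69.6, 67.5 and 55.5 CPM untreated, 83.8, 69.5 and 100 CPM at 2 h and 138, 134 and 130 CPM at 6 h. RRM2, the limiting subunit of ribonucleotide reductase in S phase, measured 292, 294 and 223 CPM, then 302, 221 and 333 CPM, then 481, 497 and 458 CPM. MCM10 measured 48.0, 43.8 and 43.4 CPM, then 53.0, 37.3 and 59.7 CPM, then 83.6, 80.3 and 84.3 CPM. The 6 h libraries of all 3 genes lay above every earlier library, and their 2 h libraries overlapped the untreated ones by replicate 2 alone. From 2 to 6 h the log2 fold changes were 0.67 for CLSPN (SE 0.09, adjusted p = 4.1e-06), 0.75 for RRM2 (SE 0.12, adjusted p = 5e-05) and 0.73 for MCM10 (SE 0.11, adjusted p = 1.4e-05). Without replicate 2 at 2 h they were 0.55, 0.60 and 0.56 and still called. Over untreated cells CLSPN reached 1.06 at 6 h (SE 0.10, adjusted p = 5.3e-09), the one value past 2-fold after PDS among the 50, and under that mark without untreated replicate 3 or with either library totals or upper-quartile scaling. RRM2 was at 0.83 and MCM10 at 0.87 (SE 0.11, adjusted p = 1.3e-06). ORC1 (0.50), ORC2 (0.50), CDC45 (0.50), POLA1 (0.47) and MCM4 (0.46) also rose from 2 to 6 h.

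Few replication genes ended below their untreated level in PEO4. At 6 h POLD1, the catalytic subunit of polymerase delta, read 93.7, 91.4 and 99.1 CPM against 131, 122 and 124 CPM untreated, with no overlap (log2 fold change −0.41, SE 0.05, adjusted p = 1.4e-07). LIG1, the ligase of Okazaki fragments, went from 105, 96.7 and 104 CPM to 84.8, 77.0 and 82.2 CPM (−0.33, SE 0.06, adjusted p = 2e-05), and MCM6 from 111, 107 and 102 CPM to 84.9, 85.9 and 88.0 CPM (−0.31, SE 0.06, adjusted p = 6.5e-05). POLD1 (−0.28), LIG1 (−0.24) and POLE2 (−0.26) were also lower at 6 h than at 2 h. By role, all 6 clamp and clamp loader genes, 7 of 8 licensing genes and 7 of 8 helicase activation genes were higher at 6 h (background 34.6% of all genes). Higher calls for 2 of the 6 MCM2-7 genes (MCM4 at 0.23 and MCM7 at 0.43) and 3 of 9 polymerase and primase genes were near that background. ORC3 and GINS1 were called after PDS in neither line at either time, with values from −0.11 to 0.11. With library totals for scaling, GINS1 was called lower at 2 h in PEO1 BRCA+ (−0.15) and PEO4 (−0.17), and ORC3 at 6 h in PEO1 BRCA+ (−0.26).

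**Figure D4:**
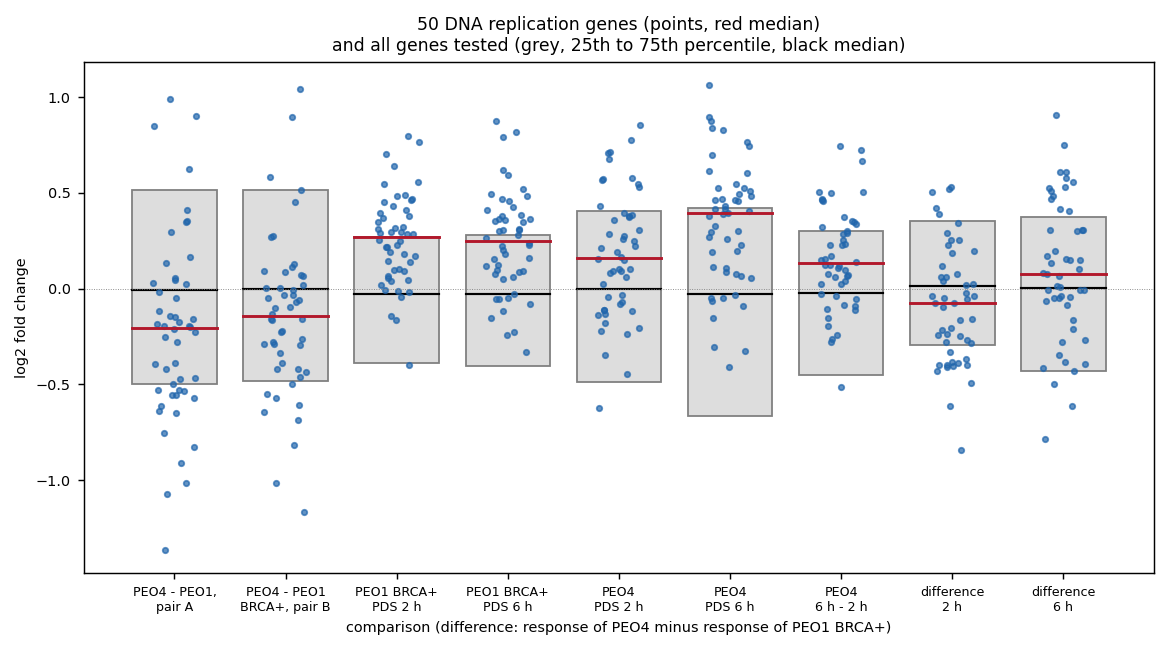
Log2 fold changes of the 50 replication genes (points, red bar at their median) in 9 comparisons beside all genes tested (grey box from the 25th to the 75th percentile, black bar at the median). The red bar lies below the black one for the lines, and above it after PDS in both lines, by most at 6 h in PEO4 (0.39 against −0.03).

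The response to PDS was compared between the lines directly, as the PEO4 response minus the PEO1 BRCA+ response in a single model. At 2 h this difference was negative for 16 of the 50 and positive for 7 (background 18% and 19.3%; 11% over 2-fold), and at 6 h negative for 10 and positive for 17 (background 23% and 24.4%; 14.8% over 2-fold). The median difference was −0.07 at 2 h and 0.08 at 6 h, against 0.02 and 0.01 over all genes. Without replicate 2 of PEO4 at 2 h the 2 h counts were 13 negative and 10 positive (background 17.0% and 18.1%), with a median of −0.02. CHAF1A, ORC1 and RPA1 then lost a negative call, and CLSPN, POLE and POLE2 gained a positive one. Leaving out each library in turn gave 13 to 22 negative and 5 to 10 positive calls at 2 h, so replicate 2 marks 1 end of both ranges. The 2 times share the untreated libraries, and every difference among the 50 was under 2-fold.

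A negative difference was called for 5 of the 6 MCM2-7 genes at 2 h and 4 at 6 h, and for both Okazaki genes at each time. MCM3 rose in PEO1 BRCA+ from 155, 140 and 145 CPM to 204, 191 and 198 CPM at 2 h and 210, 206 and 199 CPM at 6 h, while in PEO4 it went from 277, 276 and 264 CPM to 254, 200 and 269 CPM and 280, 283 and 287 CPM. The difference in response was −0.61 (SE 0.10, adjusted p = 4.6e-05) at 2 h, −0.50 without replicate 2, and −0.43 (SE 0.10, adjusted p = 0.0014) at 6 h. For the rest of the hexamer the difference at 2 h was −0.43 for MCM2, −0.33 for MCM4, −0.39 for MCM5 and −0.41 for MCM6, all called, and −0.16 for MCM7, which was not. Without replicate 2 the first 4 were −0.36, −0.23, −0.29 and −0.34, still called. MCM6 moved in opposite directions at 6 h, from 71.0, 69.8 and 72.4 CPM to 91.4, 88.2 and 84.3 CPM in PEO1 BRCA+ (0.31) against the fall in PEO4 given above, a difference of −0.61 (SE 0.08, adjusted p = 2.1e-06). LIG1 did so as well, from 67.6, 70.0 and 76.1 CPM to 99.4, 97.9 and 96.6 CPM in PEO1 BRCA+ (0.46), a difference of −0.79 (SE 0.08, adjusted p = 3.3e-08). After 6 h MCM6 was at 84.3 to 91.4 CPM in PEO1 BRCA+ and 84.9 to 88.0 CPM in PEO4, so the levels that had been apart in untreated cells overlapped.

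POLA1 showed the largest difference at 2 h, rising in PEO1 BRCA+ from 45.1, 41.1 and 46.1 CPM to 50.8, 50.4 and 53.0 CPM (0.22) and falling in PEO4, a difference of −0.84 (SE 0.12, adjusted p = 1e-05), or −0.71 without replicate 2. At 6 h it was −0.38. PRIM2 differed by −0.40 at 2 h and −0.01 at 6 h, and POLA2 by −0.40 and −0.01. Without replicate 2 the 2 h values were −0.30 for PRIM2 and −0.31 for POLA2, still called. POLD1 (−0.28 and −0.50), POLD3 (−0.37 and −0.28) and FEN1 (−0.38 and −0.35) had negative differences at both times.

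A positive difference does not always mean a larger response: POLE, at 0.30 at 6 h, was lower in PEO1 BRCA+ (−0.33) and at −0.03 in PEO4, and TIMELESS, at 0.31, was lower in PEO1 BRCA+ (−0.24) and at 0.07 in PEO4. ORC1 was negative at 2 h (−0.40, adjusted p = 0.047) and positive at 6 h (0.42), and its call at 2 h was lost without replicate 2. CLSPN differed by 0.91 at 6 h (SE 0.14, adjusted p = 1.8e-05), since in PEO1 BRCA+ it stayed at 58.0 to 69.2 CPM over all 9 libraries. ORC5 went from 6.45, 5.88 and 5.90 CPM to 8.69, 7.08 and 7.92 CPM at 2 h and 9.59, 9.58 and 10.5 CPM at 6 h in PEO4, and from 7.72, 7.35 and 7.24 CPM to 6.55, 7.55 and 6.03 CPM and 7.40, 7.28 and 6.84 CPM in PEO1 BRCA+. The difference was 0.52 (SE 0.15, adjusted p = 0.0093) at 2 h and 0.75 (SE 0.15, adjusted p = 0.00025) at 6 h. PRIM1 differed by 0.53 at 2 h (SE 0.12, adjusted p = 0.00091) and GINS3 by 0.50 (SE 0.15, adjusted p = 0.0089), ORC6 by 0.42, and at 6 h RFC5 by 0.61 (SE 0.10, adjusted p = 2.2e-05) and RRM2 by 0.61 (SE 0.17, adjusted p = 0.0073). No difference in response was called for PCNA (0.03 at 2 h, with an approximate 95% interval of −0.17 to 0.22, and −0.05 at 6 h, −0.24 to 0.15) or for GMNN (−0.02, −0.22 to 0.18, and 0.08, −0.12 to 0.28).

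The response at 6 h was also listed by promoter word (background 34.6% higher and 35.2% lower in PEO4, 27.0% and 26.0% in PEO1 BRCA+). In PEO4, of the 19 genes with an E2F word 9 were higher and 2 lower, with a median of 0.11 and a range from −0.33 to 1.06 (CLSPN), and of the 25 without one 22 were higher and 1 lower, with a median of 0.46. In PEO1 BRCA+ at 6 h the medians were 0.24 with a word and 0.22 without, and 11 of 19 and 13 of 25 were higher. The 11 genes with the G-quadruplex pattern, among them PCNA, CDT1, GMNN and FEN1, had a median of 0.38 in PEO1 BRCA+ and 0.39 in PEO4 at 6 h, and the 33 without it 0.22 and 0.40. With CCAAT the median in PEO4 was 0.39 over 25 genes, and without it 0.41 over 19. These are descriptions of the groups and were given no test.

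Other genes of the pathway were listed by role, and their counts stand beside the background shares of all genes, 27.0% higher and 26.0% lower at 6 h in PEO1 BRCA+, 34.6% and 35.2% at 6 h in PEO4, and 26.4% and 26.2% at 2 h in PEO1 BRCA+. A list of 23 further fork and origin genes held 7 higher and 2 lower calls at 6 h in PEO1 BRCA+ and 14 and 4 in PEO4, with POLE4, a small subunit of polymerase epsilon, at 1.21 (SE 0.11, adjusted p = 5.8e-09) and TIPIN, the partner of TIMELESS, at 1.01 (SE 0.11, adjusted p = 7.6e-09) in PEO4. MCM8, an MCM relative outside the hexamer, was lower in PEO4 than in the PEO1 line in both pairs (−1.28 and −1.18), and the helicase RECQL4 was higher (1.21 and 1.78). Of 10 further nucleotide synthesis genes 4 were higher and 3 lower in PEO4 at 6 h: CTPS1, which makes CTP, was at 1.14 (SE 0.08, adjusted p = 4.5e-11) and SAMHD1, which degrades dNTPs, at −0.93 (SE 0.10, adjusted p = 3e-08). Of 8 replication-coupled chromatin genes 5 were higher and 1, ASF1B, was lower (−0.59). Of 25 G1/S control genes 13 were higher and 7 lower in PEO4 at 6 h, with the phosphatase CDC25A at 1.1 (SE 0.08, adjusted p = 2.5e-11) and E2F2 at −2.85 (SE 0.16, adjusted p = 5.9e-14), and 12 were higher and 2 lower in PEO1 BRCA+, with the CDK inhibitor CDKN1A at 1.08. Of 25 mitosis genes 22 were higher in PEO1 BRCA+ at 2 h, 13 higher and 1 lower at 6 h, and 23 higher and 2 lower in PEO4 at 6 h. At 2 h in PEO4, with all libraries, 18 of the 25 mitosis genes were higher, and of the 50 replication genes 25 were higher and 9 lower (background 33.3% higher and 32.0% lower). Without replicate 2 at 2 h the replication counts were 31 higher and 5 lower. From 2 to 6 h in PEO1 BRCA+ 9 of the 25 mitosis genes and 1 of the 50 replication genes were lower (background 2.98% lower). Median log2 fold changes at 6 h in PEO4 were 0.20 for the fork and origin list, −0.06 for nucleotide synthesis, 0.22 for chromatin and 0.26 for G1/S control, against −0.03 over all genes. Mitosis genes had a median of 0.48 in PEO4 at 6 h beside 0.39 for the replication genes. In untreated cells of pair A 17 of the 25 mitosis genes were lower in PEO4 and 2 higher (background 31.6% and 30.1%), while in pair B 10 were lower and 7 higher (background 34.6% and 34.0%). The part of the cell cycle distribution of the cultures in these results was not tested.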

How the data were processed

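RNA from 3 biological replicates per condition was sequenced; per the labels, the pair A libraries were made with a directional polyA kit. Per the labels, the authors processed the reads with FastQC, fastp, STAR and featureCounts on hg38 and deposited raw counts per gene symbol, without normalization; versions, annotation and strand setting are not given in the sources used here. The untreated pair A (6 libraries) and the PDS series of pair B (18 libraries) are separate tables and were fitted separately. Lines without readable counts (2 and 1) were left out.

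Counts were filtered with filterByExpr (minimum count 10, minimum total 15), scaled by TMM and fitted with edgeR 4.0.16 in R 4.3.3, using its robust quasi-likelihood test; each condition had its own mean, and p-values were adjusted over the whole table by Benjamini-Hochberg. Residual degrees of freedom were 4 and 12, and precision is limited by 3 replicates. The script was tested on simulated data. Groups came from the sample titles. All 50 genes are named, and for each comparison values are given for the 4 largest rises and 4 largest falls past the threshold and every gene past 2-fold; genes of other lists were the 2 largest each way, and further genes are described by role. The genes, lists and tests were chosen with earlier results of these data known. No pair of replicates differed by less than sampling noise. Alternatives were other scalings, filters, DESeq2 1.42.0, fits with only the groups compared, a replicate block and leaving out each library. Transcript lengths (MANE Select) came from GENCODE release 44, positions and promoters from RefSeq (GRCh38.p14).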

Additional observations from a re-analysis of the deposited data

How the results depend on the processing

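Most calls of the named genes kept their direction. Of 1054 values of the 69 named gene results under alternatives, 1035 stayed on their side of the threshold. Of the rest, 19 were no longer past it, and 0 values changed sign. Those that lost the call were MCM4 at 2 h and POLE2 from 2 to 6 h in PEO4, and POLD3 from 2 to 6 h and TYMS at 6 h in PEO1 BRCA+. The 69 are the largest rises and falls of each comparison, so they do not stand for the smaller calls. POLD1 at 2 h in PEO1 BRCA+, outside the 69, was called higher at 0.15 and was at −0.002 with library totals. Counts moved by over 1.5 times as follows, and the cause was not tested. With library totals, higher calls in PEO1 BRCA+ at 2 h went from 32 to 21 and lower calls from 1 to 7, lower calls at 6 h from 4 to 8, lower calls in PEO4 from 9 to 15 at 2 h and from 3 to 9 at 6 h, and the gene past 2-fold at 6 h from 1 to 0. With upper-quartile scaling the lower calls in PEO4 at 6 h were 8 and the genes past 2-fold 0, and the lower calls in PEO1 BRCA+ at 2 h were 2, as they were with a filter of 1 CPM in 3 libraries and with only the groups compared. In the latter fit lower calls in PEO4 at 2 h were 4. From 2 to 6 h in PEO1 BRCA+ the 1 lower call became 3 with DESeq2, 2 with library totals, upper-quartile scaling or the CPM filter, and 6 lower and 2 higher with only the groups compared.

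Leaving out each library gave 0 to 2 lower calls from 2 to 6 h in PEO1 BRCA+, 4 to 9 lower calls in PEO4 at 2 h, 3 to 9 from 2 to 6 h, and 0 to 1 gene past 2-fold at 6 h. Replicate numbers did not pair the samples: deviations of same-numbered libraries correlated at −0.04 to 0.02 in pair A and −0.16 to 0.13 in pair B. With a replicate block the lower calls from 2 to 6 h in PEO1 BRCA+ were 2, in place of 1, and no other count moved by over 1.5 times. The lowest total of any of the 50 genes over the libraries of a table was 2862 counts.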
